A study of Mus musculus with 2 samples.

Results

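The fully unconverted cytosines are the listed positions at which every read kept the C, in any sequence context and on either strand. Replicate 1 held 1135 of them among 28569 listed cytosines (3.97%, 95% Wilson interval 3.75 to 4.21), and replicate 2 held 1158 among 29650 (3.91%, 3.69 to 4.13). Counted once across both libraries by chromosome, position and strand, they were 1835 distinct cytosines of 46677. They were chosen by the count of converted reads itself, so their level of 100% is a description and is not tested.

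The samples were 2 libraries of genomic DNA from mouse embryonic stem cells, pluripotent cells kept in culture, which form 1 group with no treatment and no control library. Each started from 10 μg of DNA sheared to 300 to 500 bp. Formyl groups were tagged with biotin, tagged fragments were captured on streptavidin, and the captured DNA was treated with the deaminase A3A before 10 cycles of PCR. Neither the strain nor separate cultures are given by the labels, so values that differ between the replicates measure only the spread between these 2 libraries.

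5-formylcytosine (5fC) is made when the TET enzymes oxidise methylated cytosine, and the glycosylase TDG can excise it so that repair restores plain cytosine. Methylated cytosine in mammals lies mostly in CG, with some in other contexts in embryonic stem cells. A3A turns unlabelled cytosine and its methylated form into bases that are read as T, and it prefers cytosines that follow a T. In CLED-seq, the method used here, biotin-labelled 5fC withstands A3A, so a C that persists in the reads is a candidate 5fC. Persistence in every read does not by itself tell modification from failed conversion, and no control library was analysed here that would separate them.

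Sequences show where such cytosines sit in known promoters. RefSeq promoter windows on GRCm38.p6, the build called mm10 by the submitters, run from 250 bases before to 50 bases after an annotated start. Of the 1835 distinct cytosines, 43 lay in such a window, and 15 of these were fully unconverted in both replicates. The 9 below come from the 10 deepest, ranked by the lower depth of the replicates. The other one, near Odaph, lay 26 bases past the annotated start and is not shown. Each line gives 29 bases 5′ to 3′ on the strand of the cytosine, which is in the middle, and the capitals mark that cytosine and the next 2 bases, which set its context.
Mob4, chr1:55131206-55131234, plus strand: gccgcagcgctgagCCCcgccgtgccccg
Sgpp2, chr1:78310122-78310150, plus strand: catgcacgtggaccCGTccacgcagttgc
Cdk6, chr5:3343852-3343880, minus strand: gagagggggcgtgcCGAgcagcccagagt
Cln3, chr7:126585978-126586006, plus strand: caaagacatggttgCAGaaatcgaatggt
Gdpd4, chr7:97919903-97919931, minus strand: gcgtggccactcgtCGTgggggcgtggcc
Rnf7, chr9:96478719-96478747, minus strand: gcccctcgtgacgtCACtggcgcgcgcca
Cbarp, chr10:80139387-80139415, plus strand: ccttccggcgggggCGTggggcggagcct
Stat2, chr10:128270385-128270413, plus strand: gcactaacgagcttCTCcctctccgccaa
Gadd45g, chr13:51846526-51846554, plus strand: ccctccccacgtggCCTtctggcacgagc

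In these windows the unconverted base stood among many other cytosines. The stretch before Mob4, whose product belongs to the striatin phosphatase complex, held 15 cytosines on the shown strand, and the one before the lysosomal membrane protein gene Cln3 held 4. Over the 41 members with a complete window, 361 other cytosines lay on the same strand within 14 bases, and 4 of them were listed in either library. An unlisted cytosine can have had too few reads or too low a level, so its own level is not known. The Mob4 cytosine, at -25 relative to the annotated start, kept the C in 41 of 41 reads in both replicates. At Sgpp2, which encodes a sphingosine-1-phosphate phosphatase, the CG cytosine at -210 also had 41 of 41 reads in both.

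The Cdk6 cytosine, at -27 from an annotated start of this cell-cycle kinase gene, had 75 reads in replicate 1 and 38 in replicate 2. Those at Cln3 and Gdpd4 had 38 and 35 reads in each replicate. The cytosine at -58 of Rnf7, which encodes a RING subunit of cullin ubiquitin ligases, had 34 in each and is the only one shown that lay in the letters TGACGTCA. That motif, which reads the same on both strands, was looked for after the sequence was seen. It is held at any place by 1.79% of the 32851 promoter windows, a looser condition than a cytosine inside the motif. The cytosine before Cbarp, a regulator of voltage-gated calcium channels, had 33 reads in each replicate. Near the interferon signalling gene Stat2 it was 32 in each, and near the stress-response gene Gadd45g 31 and 32.

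Promoter windows held 2.34% of the fully unconverted cytosines and 1.88% of the other listed ones, a difference of 0.46 points whose 95% Newcombe interval (-0.15 to 1.27) included 0. Of the 43, 12 were CG (27.9%, Wilson 16.7 to 42.7), against 24.8% of the 844 others in such windows. The base before the cytosine, known here only inside these windows, was T at 12 of 43 (27.9%, 16.7 to 42.7) against 17.0% of 841 others (14.6 to 19.7). The difference of 10.9 points had an interval of -0.58 to 25.9, so it was not separable from counting error with this number of sites. Intervals count each cytosine once and cover counting error only, because copies made in the PCR carry no molecular identifier and cannot be told from separate molecules.

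Full retention was the most frequent value at the low end of the converted-read counts. There were 1135 and 1158 cytosines with 0 converted reads, then 938 and 923 with 1, 858 and 902 with 2, and 779 and 782 with 3. From there the counts fell unevenly, to 598 with 11 converted reads in replicate 1, and then rose to a second peak. Just outside the rule, with 1 converted read, the median depth was 33 reads in both replicates, the same as with 0. At 30 reads with none converted the Wilson lower bound of the level is 88.6%. At the deepest members, 98 reads in replicate 1 and 89 in replicate 2, the bound is 96.2% and 95.9%. At the median depth of 33 reads it is 89.6%. A count of 0 converted reads therefore does not fix the level at 100%, and 0 and 1 converted reads cannot be separated at these depths. In the authors' deposited table the p-values of the members ran from 1.66e-35 down to 2.44e-114 in replicate 1 and to 6.61e-104 in replicate 2. The members were chosen by their read counts, so these p-values are a description and lend them no further support.

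**Figure D1:**
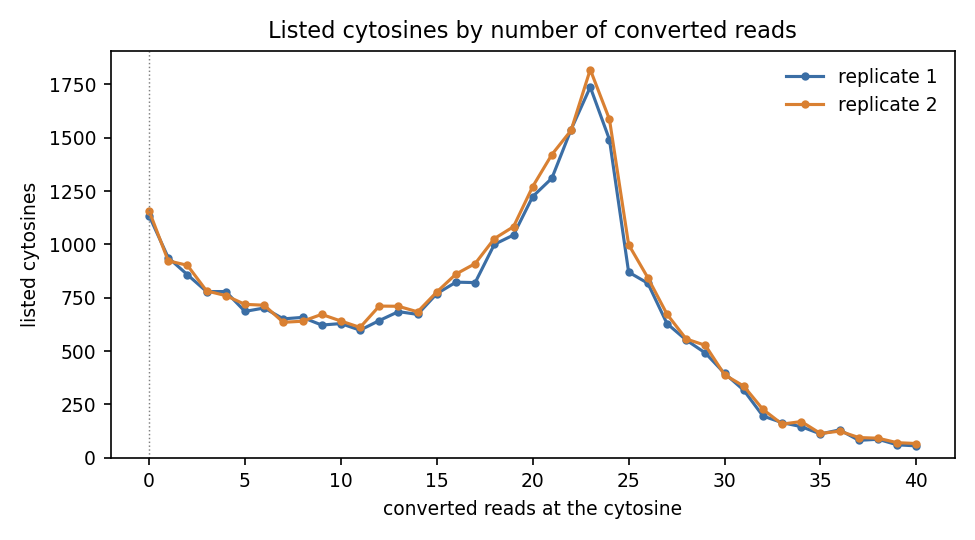
Number of listed cytosines (vertical axis) at each count of converted reads up to 40 (horizontal axis), with 1 line per replicate. Both lines start at 1135 and 1158 cytosines with 0 converted reads, fall, and rise to a second peak of lower levels.

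Depth was slightly lower at the members. Their median was 33 reads in both replicates (quartiles 31 and 36, range 30 to 98 and 30 to 89), against 34 for the other listed cytosines. A depth of at least 40 was reached by 13.6% of members in replicate 1 and 13.7% in replicate 2, against 19.9% and 19.8% of the others. Read the other way, 5.06% of listed cytosines with 30 or 31 reads were fully unconverted in replicate 1, 3.20% with 35 to 39 reads and 2.45% with 50 or more. In replicate 2 the same shares were 4.73%, 3.42% and 2.33%. These shares include the windows of 10 kb with at least 10 listed cytosines, where 0 members lay. At 50 or more reads the other listed cytosines numbered 1552 and 1550, but 1117 and 1161 outside those windows, beside 39 and 37 members. The share at 50 or more reads is therefore lower than it would be without those windows. Fewer reads make a count of 0 converted more likely at any level below 100%, so depth and the rule are linked. The reads at members summed to 39458 and 40287.

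Most members lay outside CG, like the rest of the list. CG made up 9.25% of members in replicate 1 (105 cytosines, Wilson 7.70 to 11.1) and 10.3% in replicate 2 (119 cytosines, 8.66 to 12.2). H stands for A, C or T: the CHG share was 22.6% and 24.1%, and the CHH share 68.1% and 65.6%. Against the other listed cytosines the CG share was higher by 1.29 points in replicate 1 (95% Newcombe interval -0.29 to 3.15) and by 2.16 in replicate 2 (0.51 to 4.07). The interval thus excluded 0 in replicate 2 and not in replicate 1. For the distinct cytosines of both libraries the difference was 1.87 points (0.57 to 3.34), and it was 0.82 points (-0.13 to 1.87) when cytosines with 1 converted read were counted as members too. These pooled intervals treat every cytosine as independent. The libraries were not independent, and cytosines within 120 bp of each other were not merged, so the intervals may be too narrow.

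Depth and site-dense windows both touch this comparison. Of the members, 0 lay in the 13 windows of 10 kb that hold at least 10 listed cytosines, with Wilson upper bounds of 0.337% and 0.331%, while 2.92% and 2.58% of the others lay there. With those windows left out, the CG difference was 1.76 points (0.18 to 3.61) and 2.69 points (1.04 to 4.60). Within the depth of 30 to 39 reads it was 1.91 points (0.24 to 3.89) and 2.19 points (0.49 to 4.18). At 40 to 49 reads it was -0.46 points (-4.94 to 6.52) in replicate 1 and 4.57 (-0.89 to 12.1) in replicate 2, where 12 and 19 CG members were counted. Across levels below 100%, outside the dense windows, the CG share stayed between 7.02% and 7.91% in replicate 1 and between 7.24% and 7.96% in replicate 2, against the 9.25% and 10.3% at 100%. The levels below 100% were not tested against each other.

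**Figure D2:**
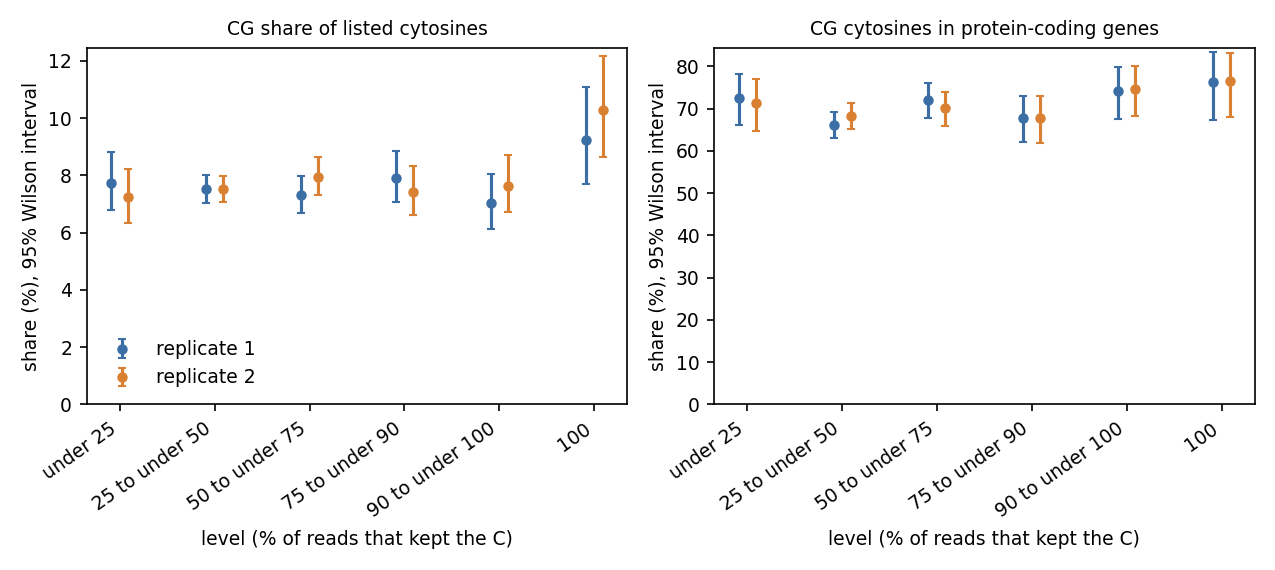
Left, CG share of the listed cytosines by level; right, share of the CG cytosines of each level that lie in a protein-coding gene or within 2 kb of one. Points are replicates with 95% Wilson intervals, outside dense windows. The CG share at 100% was 9.25% and 10.3%, above the points at lower levels. In both panels the intervals overlap between neighbouring levels.

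No trinucleotide set the members apart. All 16 were compared with intervals at a level of 99.7%, adjusted for 16 comparisons, and each interval included 0 in both replicates. CAG was the most common, at 11.2% of members in replicate 1 and 11.9% in replicate 2, followed by CTG at 9.87% and 10.6%. CCG was at 1.59% and 1.55%, against 2.45% and 2.22% of the others. CAC was at 8.90% and 9.07% against 7.83% and 7.74%. Of the members, 49.3% and 49.7% were on the plus strand.

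The share of members in genes differed from the rest beyond counting error in 1 replicate of 2. In replicate 1, 57.4% lay in a protein-coding gene or within 2 kb (Wilson 54.5 to 60.3) against 56.3% of the others, and in replicate 2 59.7% (56.8 to 62.5) against 56.4%. The difference was 1.18 points (-1.77 to 4.09) and 3.28 points (0.37 to 6.13). Outside the dense windows it was -0.28 points (-3.24 to 2.63) and 1.97 points (-0.94 to 4.82), and both intervals included 0. Among the members themselves, context and gene position went together. CG members were in genes at 76.2% and 76.5%, against 55.5% and 57.7% of the members outside CG, which are differences of 20.7 points (11.2 to 28.4) and 18.7 points (9.84 to 26.1). Against all other listed CG cytosines, at 63.8% in both replicates, CG members were higher by 12.4 points (3.23 to 19.8) and 12.7 points (4.11 to 19.7). The other listed CG cytosines outside dense windows were at 69.2% and 69.5%. There the difference was 7.02 points (-2.18 to 14.4) and 6.92 points (-1.67 to 13.9), with 0 in both intervals.

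By chromosome, the share of listed cytosines that were fully unconverted was not tested and is described by its intervals. In replicate 1 it ran from 2.76% on chromosome 18 (Wilson 1.84 to 4.104) to 5.62% on chromosome 19 (4.17 to 7.53), leaving out chromosome Y with 1 member. Chromosome 19 was at 5.11% in replicate 2 (3.77 to 6.88), close to chromosome 11 at 5.09%, and chromosome 12 was lowest at 2.81% (2.03 to 3.88). On chromosome X it was 4.42% and 4.87% (21 and 24 members), within the range of the autosomes. These shares are of listed cytosines and say nothing of how many each chromosome holds in all.

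**Figure D3:**
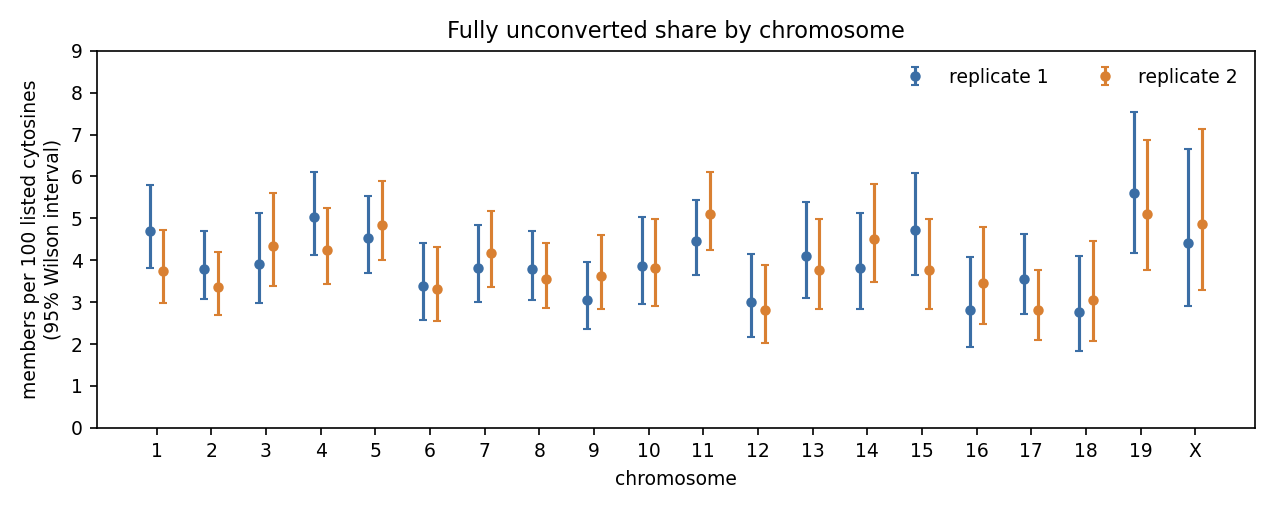
Fully unconverted cytosines per 100 listed cytosines (vertical axis) on each chromosome but Y, with 95% Wilson intervals, for both replicates. Chromosome 19 had 5.62 and 5.11 per 100 and chromosome 12 had 3.01 and 2.81, and most intervals overlap.

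Positions with no converted read in either replicate were ranked by the lower of their 2 depths, and of the first 15 of them 13 were CHH. The first lay on the plus strand of chromosome 8 at 12181701, 95231 bp from the gene A230072I06Rik, with 67 reads in replicate 1 (Wilson lower bound 94.6%) and 64 in replicate 2 (94.3%). A CHH cytosine in the DNA damage checkpoint kinase gene Chek2, at chromosome 5 position 110859262, had 62 and 61 reads. A CG cytosine in the tRNA methyltransferase gene Trmt1 had 87 and 56, and a CHH cytosine in Dtx2, a ubiquitin ligase gene of Notch signalling, had 81 and 54. On chromosome 14 at 23116258, 60165 bp from Lrmda, the depths were 51 and 77. Depth was thus similar in both replicates at some of these positions and unequal at others, while the level of 100% in both was the condition for choosing them.

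Further deep positions in genes had nearly equal depths. The cytosine in Rapgef2, an exchange factor for the GTPase Rap, had 44 reads in both replicates (chromosome 3, 79159057). That in the transcription elongation factor gene Supt5 had 44 and 43 reads (chromosome 7, 28336998), and that in Rab3b, a GTPase of vesicle release, 43 in both (chromosome 4, 108898416). Each of these was CCC on the minus strand, while those in Chek2, Trmt1 and Dtx2 were CTT, CGA and CAT. CCC made up 8.55% and 9.24% of all members, against 8.29% and 8.68% of the other listed cytosines. Others were far from protein-coding genes, such as those 75119 bp from Pcdh18 (50 reads in both), 89291 bp from Selenok (48 in both) and 373000 bp from Zmiz1 (44 in both). Exons, introns and UTRs were not annotated here, so a position is given only as inside or outside a gene.

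By the same ranking, the first CHG positions included unequal depths. In Pigv, a mannosyltransferase gene of GPI anchor synthesis, replicate 1 had 41 reads and replicate 2 had 80 (chromosome 4, 133659909). A position 70627 bp from Mup8 on the same chromosome had 40 and 79. In Msra, which encodes a methionine sulfoxide reductase, there were 41 reads in both. The first CG positions after Trmt1 were at 51 reads in both in Pstpip2, then 43, 42 and 41 reads in both at sites on chromosomes X, 10 and 1.

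The same position and strand was listed in the other library for 486 of the 1135 members of replicate 1 (42.8%, Wilson 39.97 to 45.7) and for 480 of the 1158 of replicate 2 (41.5%, 38.6 to 44.3). The other listed cytosines outside dense windows were found again at 40.1% and 38.5%. The differences were 2.72 points (-0.19 to 5.68) and 2.96 points (0.09 to 5.87). Both draw on the overlap of the same libraries, seen from each side, so they are not independent results. Listing can also depend on the level, which is lower at the others. By depth the direction varied. At 30 to 39 reads 44.0% and 42.7% of members were listed again, against 40.4% and 38.8% of the others. At 40 to 49 reads it was 33.9% (Wilson 25.9 to 43.0) and 31.1% (23.6 to 39.8) of members against 38.5% and 37.1%. At 50 reads or more it was 38.5% and 40.5% of members against 39.6% and 37.7%. Where a member was listed again, it was almost always fully unconverted again: 458 cytosines had no converted read in both. Only 28 members of replicate 1 and 22 of replicate 2 had any converted read in the other library, and at 27 and 21 of these it was a single read.

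Among members that the other library listed, the lowest level there was 86.8% (33 of 38 reads, Wilson 72.7 to 94.2), at chromosome 11 position 40139316, far from any protein-coding gene. The level of the 1327 members not listed in the other library is not known there. The next was 92.2% (59 of 64) in the synaptotagmin gene Syt9, where replicate 2 had 35 of 35. After these, cytosines in Dennd4b, Ift122 and Zfp423 each had 29 of 30 reads in 1 replicate and 30 of 30 in the other. A two-sided Fisher's exact test of kept and converted reads, with Benjamini-Hochberg adjustment at 0.05 over all 11542 shared cytosines, called 0 of the 508 shared members, against a background of 0.0260% called. The test uses the same read counts that chose the members, so nothing is read from their count. At an unadjusted p under 0.05 by Fisher's exact test there were 0 of the 508 and 27 of all shared cytosines.

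The levels do not count as independent agreement, because depths were alike beyond sampling noise. Of the 458 cytosines fully unconverted in both, 390 had exactly the same depth in both replicates and 433 were within 1 read. The pattern was not limited to them: identical counts were found at 80.2% of the members of replicate 1 and 81.3% of those of replicate 2 that the other library listed, and at 72.6% and 72.5% of the other listed cytosines outside dense windows. Depth differed by 2 to 10 reads at 8 and by more than 10 at 17. At 12 of these 17 the higher depth was 1.8 to 2.2 times the lower, with replicate 1 higher at 10 of the 17 and replicate 2 at 7. The 458 are therefore counted as 1 sample and not as a replicated measurement. Their CG share was 9.83%, against 9.73% of the 1377 members of a single library, a difference of 0.09 points (-2.84 to 3.49).

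**Figure D4:**
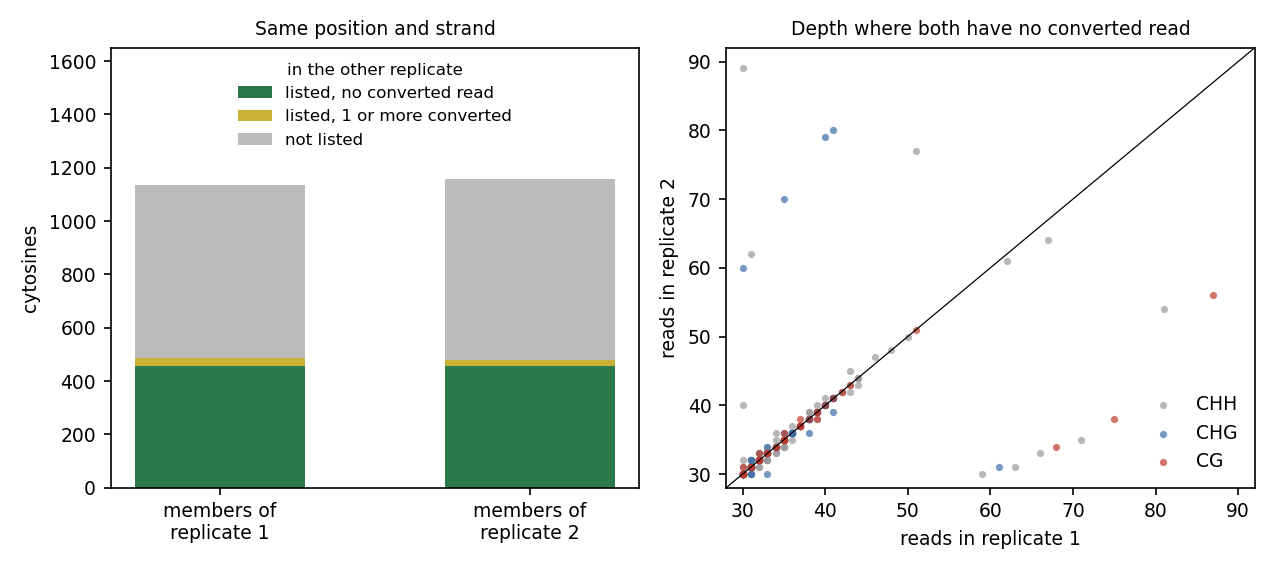
Left, members of each replicate by whether the other replicate listed the same position and strand with no converted read (458), with 1 or more (28 and 22), or not at all (649 and 678). Right, depth in both replicates at the 458 cytosines with no converted read in either, by context, with the line of equal depth: 390 lie on it, and 17 lie more than 10 reads off it.

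Members that the other library did not list often had a fully unconverted cytosine close by in that library. Of the 649 such members of replicate 1, 139 had one within 120 bp in replicate 2 (21.4%, Wilson 18.4 to 24.7), and of the 678 of replicate 2, 140 had one in replicate 1 (20.6%, 17.8 to 23.9). Within their own library another member lay within 120 bp of only 8 of 1135 and 10 of 1158. Among the other listed cytosines outside dense windows that the second library lacked, 21.2% and 19.9% had a partner within that distance whose counts of kept and converted reads were each within 1, and so did 22.2% and 21.2% of the members.

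The distances fell in a short and a long range, with no pair from replicate 1 between 8 and 61 bp apart. The classes that follow were set for counting, and distances ran on across their limits at 70 and 91 bp. Of the 139 pairs from replicate 1, 18 lay 1 to 5 bp apart, 2 lay 6 to 9 bp apart, 4 lay 10 to 69 bp apart, 33 lay 70 to 90 bp apart and 82 lay 91 to 120 bp apart. The partner was on the opposite strand in 64 pairs and on the same strand in 75, and in 70 pairs it had another context. Depth was within 1 read in 122 of the pairs and equal in 67. Only 10 of the equal pairs were among the 64 on the opposite strand, and the rest were on the same strand. On chromosome 6 a CHG cytosine at 85350965 had 76 reads in replicate 1, and replicate 2 listed a CG cytosine 106 bp away with 75. On chromosome 17 a minus-strand CHH cytosine at 88857326 had 46 reads, and its plus-strand CHH partner 109 bp away also had 46. The level of the partners was fixed by the search, and whether a pair stands for 1 cytosine or for separate ones was not tested. When members within 120 bp were merged, the 1835 distinct cytosines formed 1690 loci. Apart from these partners, 472 of the 649 had no listed cytosine at all within 120 bp in replicate 2.

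**Figure D5:**
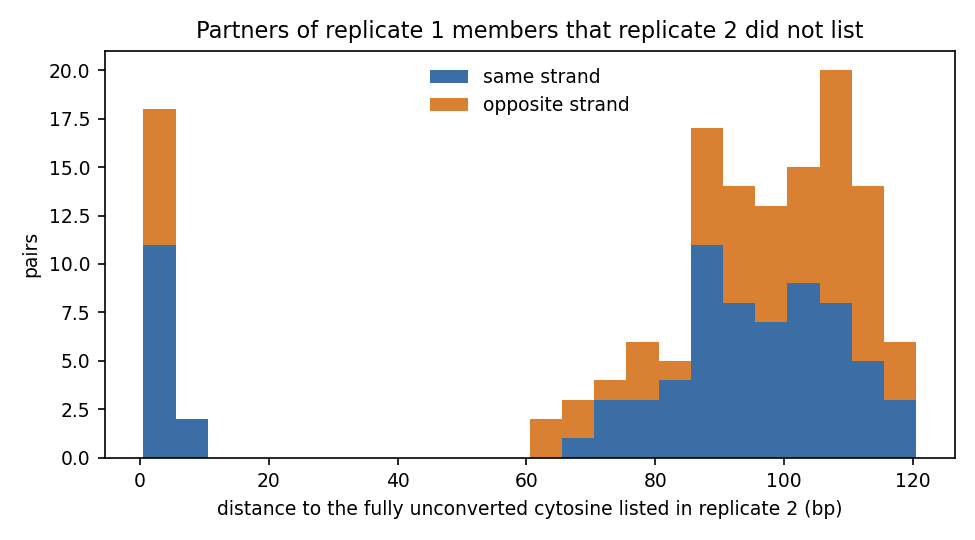
Distance from each member of replicate 1 that replicate 2 did not list to a fully unconverted cytosine that replicate 2 did list (horizontal axis, bp), as the number of pairs per 5 bp, coloured by strand. Of the 139 pairs, 18 lie at 1 to 5 bp and 82 at 91 to 120 bp, with both orientations in each range.

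Within a library, members stood alone. Neighbouring members were a median of 1066 kb apart in replicate 1 and 1073 kb in replicate 2. Another member lay within 100 bp of 0.70% and 0.86%, and any listed cytosine within 100 bp of 1.67% (Wilson 1.07 to 2.60) and 2.33% (1.61 to 3.37). The latter share was 1.58% and 1.83% at the other listed cytosines outside dense windows, inside the intervals of the members. Closest were cytosines 2 bp apart in the dipeptidase gene Dpep3, both with 33 of 33 reads in replicate 1, at chromosome 8 positions 105975633 and 105975635. In Nipsnap2, cytosines 3 bp apart on opposite strands had 34 of 34 reads each in replicate 2 (chromosome 5, 129739370 and 129739373), and replicate 1 listed the second alone with 33. Cytosines of both strands of a CpG were members at 2 CpGs, on chromosomes 14 and 19, each with the plus strand listed by replicate 2 and the minus strand by replicate 1.

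Members were spread thinly over genes. Of 21887 protein-coding genes, 1008 held at least 1 distinct member within the gene or 2 kb (4.61%), and 262 held one that was fully unconverted in both replicates (1.20%). At least 2 were held by 142 genes, but by 49 when partners within 120 bp were merged. Genes with a member had a median length of 58372 bp, against 17169 bp over all protein-coding genes. Ralgps1, which encodes an exchange factor for the GTPase Ral, held the most, with 6 cytosines at 4 loci along 238081 bp, of which 3 were CG and 0 were fully unconverted in both replicates. Their depths were 33, 34 or 41 reads. The gene Angptl2 lies inside the span of Ralgps1, and 2 of the CG cytosines were in both genes.

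Camta1, a transcription activator gene of 802246 bp, held 5 at 4 loci with 30 to 32 reads, 1 of them in both replicates. Abr held 4 at 3 loci, and 2 of these were found in both replicates (chromosome 11, 76494349 with 32 and 33 reads and 76568015 with 32 in both). Iffo2, an intermediate filament family gene, also held 4 at 3 loci. In Cdk6 the promoter cytosine shown above was followed 81 bp on by a CHG cytosine on the same strand with 38 reads in both replicates, and another lay further into the gene with 42 reads in replicate 2. The overlapping genes Lrfn4 and Pcx, for a synaptic adhesion protein and pyruvate carboxylase, shared 3, of which 4614882 and 4614968 on chromosome 19 were found in both replicates with 37 and 30 reads. Rimbp2, a presynaptic gene, held 3 at 3 separate loci.

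Of 25 genes of cytosine methylation, its oxidation and the removal of 5fC, 0 held a member, so the TET and DNA methyltransferase genes and Tdg had none. Of 25 pluripotency factor genes 1 did (4%), close to the 4.61% of all protein-coding genes: in Utf1, a chromatin factor of embryonic stem cells, a CHH cytosine had 40 of 40 reads in both replicates (chromosome 7, 139944717). Of 25 histone methylation and polycomb genes 1 did, the methyltransferase gene Kmt2c, with a CG cytosine 242 bp outside the gene and 40 of 40 reads in both. Among 21 imprinted genes 3 did (14.3%). In the ubiquitin ligase gene Ube3a, replicate 1 listed a CHH and replicate 2 a CG cytosine 33 reads deep, at 59229094 and 59229178 on chromosome 7. The adaptor gene Grb10 and the potassium channel gene Kcnq1 each held a CHG cytosine with 31 of 31 reads in replicate 2 alone. These lists are small, and nothing is read from their counts. In addition 1 member, on chromosome 7 at 47083190 with 32 reads in replicate 2, lay in the hairpin of the microRNA gene Mir7056.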

How the data were processed

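For each listed cytosine the authors deposited, per the file headers, raw counts of unconverted and converted reads with the depth that they add up to. The authors also deposited a p-value per cytosine and its adjustment by Holm and by Benjamini and Hochberg, per the file headers. The lowest depth listed was 30 and the highest adjusted p 0.0497, so other cytosines were not analysed here. The submitters' processing notes name, with no role or order, Bismark 0.23.1, SAMtools, cutadapt 4.1, Bowtie2 2.4.5, mm10 and FastQC 0.11.9. Whether duplicate reads were removed is not known from the sources used here. Total library depth is not known, and at the median depth of 33 reads a level of 100% has a Wilson lower bound of 89.6%.

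Members were the rows with 0 converted reads. Libraries were matched by chromosome, position and strand. Shares have 95% Wilson intervals and differences 95% Newcombe intervals. Shared sites were compared by Fisher's exact test. The Newcombe interval and Fisher's exact test were tried on simulated data. For Fisher's test the simulated kept reads were drawn independently for each library, whereas the real counts were often identical. Genes came from a RefSeq table of GRCm38.p6, with 2 kb on both sides, and all 1006 comparable trinucleotides in promoter windows equalled the deposited ones. Intervals and tests used scipy 1.17.1, run with pandas 2.3.3 and numpy 2.4.6 under Python 3.11.15.

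The members and gene lists were chosen with earlier results of these data known. The depth ratios, the TGACGTCA motif and the hairpin match were added after the values were seen. Named positions are the 15 deepest fully unconverted in both libraries, the 5 deepest per context, the 5 lowest in the other library, those within 5 bp of another, those in promoter windows, up to 15 genes with at least 2, and genes of the lists; not every one is printed. Alternatives were a higher depth, 1 converted read, dense windows left out, gene bodies alone, other distances and each replicate alone.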

Additional observations from a re-analysis of the deposited data

How the results depend on the processing

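Of the alternatives, 38 left a result on its side of the threshold or within its interval, 21 moved it, and 7 kept the direction of a difference but brought its interval across 0. Because 0 members lay in dense windows, leaving those windows out could not change a value taken on members alone. The 38 include such values, which were fixed in advance and are no sign of stability. With the list of each library limited to a depth of at least 40, 271 distinct members remained by construction, 2.89% of listed cytosines, with a CG share of 13.3%; 29.2% of those of replicate 1 were listed and 27.3% fully unconverted in replicate 2, 9.95% of absent ones had a partner, and 0% had a member within 100 bp. With each list limited to a depth of at least 50 the same values were 69, 2.56%, 13.0%, 17.9%, 17.9%, 3.33% and 0%. A cytosine that the other library listed below the limit counts as not listed in these shares. With at most 1 converted read there were 3267 members, 6.999% of listed cytosines. The CG difference was 2.32 points at a depth of at least 40, 0.61 at 50 and 0.82 with at most 1 converted read, each with an interval that included 0. The difference for protein-coding genes was 3.36 points at a depth of at least 40 and 1.90 outside dense windows, with 0 in both intervals. At 50 it was 13.0 points (1.13 to 24.1). The differences at both depths include the dense windows, where 0 members lay and few cytosines were in genes. In replicate 1 the others in genes were 15435 of 27434 with those windows and 15374 of 26632 without. The gene difference at these depths was not computed outside dense windows. Gene bodies alone held 55.5% of members. Partners within 5 bp were found for 2.79%, and members within 10 bp for 0.17%. Leaving out a replicate gave 1135 to 1158 members, a CG difference of 1.29 to 2.16 points and a gene difference of 1.18 to 3.28 points. The share at a depth of at least 40 could not be recomputed at higher depths. No paired analysis was possible because both libraries belong to 1 group. Depth limits every level here: the Wilson lower bound of a level of 100% is 88.6% at 30 reads and 96.2% at the deepest member.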
